A study of Mus musculus with 40 samples.

Results

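Thyroid hormone acts through a pair of nuclear receptors, encoded by Thrb and Thra, and its tissue readouts include the target genes Dio1, Thrsp and Klf9. These 5 genes were taken by name from the 15958 genes of 1 expression table, and all 5 passed the filter on low values in liver, duodenum and ileum. Libraries came from wild-type C57BL/6 male mice that had either a sham operation or a small bowel resection (SBR) of 50 to 60% of the small bowel at 8 weeks of age, and that were kept on a liquid diet. That share is the one in the labels, and the study's methods state a larger one, so the extent of the resection is uncertain. From 3 weeks after surgery they were given vehicle or WUSTL0717, a gut-restricted agonist of the liver X receptor (LXR), by mouth at 30 mg/kg each day for 7 weeks, and tissue was taken at 10 weeks. The 3 groups were sham vehicle, SBR vehicle and SBR WUSTL0717, with 5, 8 and 5 liver libraries (median right lobe) and with 3, 4 and 4 libraries each of duodenum and of ileum beyond the anastomosis. No sham group received WUSTL0717, so the agonist was compared only within resected mice. The labels do not say whether each library came from a separate mouse, and p-values measure the spread between these libraries.

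The thyroid releases mostly the prohormone T4, which tissues turn into the active hormone T3. In the liver T3 binds thyroid hormone receptor beta, the main hepatic isoform, while receptor alpha prevails in many other cell types, the gut epithelium and stromal cells among them. Receptors bind as heterodimers with RXR to repeats of the letters AGGTCA, hold corepressors on genes when T3 is absent and recruit coactivators when it is bound. Dio1 is the hepatic deiodinase that makes and clears T3 and is itself a sensitive T3 target, Thrsp (Spot 14) promotes fatty acid synthesis, and Klf9 is a zinc finger repressor that also answers to glucocorticoids and the clock.

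RefSeq promoters, 250 bases before to 50 after the start (build GRCm38.p6), were matched for 4 of the 5 genes, with 2 for Thrb. Those of the 3 genes that were lower in SBR livers and of Klf9, which did not pass the test, are printed 5′ to 3′ on the gene's strand, with matches to the hexamer AGGNCA on either strand in capitals. They lie at chr14:17660710-17661009 (plus strand, the first Thrb promoter), chr4:107307119-107307418 (minus strand, Dio1), chr7:97417501-97417800 (minus strand, Thrsp) and chr19:23140976-23141275 (plus strand, Klf9).
Thrb: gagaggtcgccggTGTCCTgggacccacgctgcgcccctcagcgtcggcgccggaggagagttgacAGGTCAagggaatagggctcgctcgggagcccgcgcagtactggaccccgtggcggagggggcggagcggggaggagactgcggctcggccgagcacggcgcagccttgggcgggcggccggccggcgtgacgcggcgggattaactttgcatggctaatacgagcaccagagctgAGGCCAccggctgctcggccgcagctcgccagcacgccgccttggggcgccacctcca
Dio1: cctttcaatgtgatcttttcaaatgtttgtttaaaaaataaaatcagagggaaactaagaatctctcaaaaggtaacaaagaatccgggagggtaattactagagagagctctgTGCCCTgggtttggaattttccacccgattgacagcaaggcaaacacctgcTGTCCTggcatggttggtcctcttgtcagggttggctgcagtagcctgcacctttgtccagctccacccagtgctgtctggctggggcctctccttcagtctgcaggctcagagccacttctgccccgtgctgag
Thrsp: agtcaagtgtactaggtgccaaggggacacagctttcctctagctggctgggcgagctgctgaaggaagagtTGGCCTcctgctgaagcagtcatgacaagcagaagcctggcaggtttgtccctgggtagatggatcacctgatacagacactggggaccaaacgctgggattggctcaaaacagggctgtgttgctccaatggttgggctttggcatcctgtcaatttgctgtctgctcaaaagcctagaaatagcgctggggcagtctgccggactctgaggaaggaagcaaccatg
Klf9: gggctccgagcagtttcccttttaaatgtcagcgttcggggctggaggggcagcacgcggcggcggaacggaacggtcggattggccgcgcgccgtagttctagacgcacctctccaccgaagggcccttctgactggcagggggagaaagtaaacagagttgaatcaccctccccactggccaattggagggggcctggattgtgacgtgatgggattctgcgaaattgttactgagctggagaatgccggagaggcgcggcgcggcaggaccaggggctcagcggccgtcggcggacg
The first Thrb promoter held 1 AGGTCA at position -184 from the start, a hexamer found on either strand in 16.3% of 32851 promoters of this length. The looser AGGNCA, which includes the former, occurred on either strand in 57.2% of promoters and was found 3 times in the first Thrb promoter, 2 times in that of Dio1 and 1 time in that of Thrsp, and was not found in that of Klf9. No window held either hexamer as a direct repeat with 4 bases between, the spacing known for thyroid hormone receptors, which 5 of the 32851 promoters held in the strict and 83 in the looser form. The second Thrb promoter (chr14:17981394-17981693, plus strand) held the looser hexamer and also CACGTG and TATAAA, found on either strand in 7.15% and 13.6% of promoters. Base composition set the windows apart, with 72.7% G or C and 37 CpG in the first Thrb promoter and 63.3% and 28 in that of Klf9, against 46.0% and 4 in the second Thrb promoter. The Dio1 promoter had 49.7% and 3, and the Thrsp promoter 54.3% and 4 (median of all promoters 52.7% and 7).

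The values are log2 TPM after a batch adjustment by the authors in which the intestinal libraries were 1 batch and the liver libraries the other. Such an adjustment shifts and stretches each gene by its own amount, so levels were not compared between liver and intestine or between genes, and the size of a liver difference holds only on this adjusted scale. Tissue labels could not be checked by marker level, because after the adjustment 99.4% of genes had batch means within 1 log2 unit of each other. Of the 40 libraries, 39 were most like another library of their own tissue, and the exception was duodenum SBR vehicle replicate 1. Liver SBR vehicle replicate 7 held pancreatic acinar transcripts at 3117 TPM in sum, against 22.2 to 36.6 in the other 17 liver libraries. Read totals were not used here, so the depth behind each value is unknown.

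After resection the liver had less Thrb, Dio1 and Thrsp transcript and more Thra, and Klf9 did not pass the test. Of the 5 genes, 3 were called lower and 1 higher by limma at an adjusted p under 0.05, where 4.47% of all 15901 genes tested were called lower and 37.4% higher. The whole table was shifted in this comparison, with a median log2 difference of 0.25 over all genes. With each library centred on its own median, 20.4% of genes were called higher and 28.8% lower (3245 and 4580 genes, against 5953 and 710 as deposited), and all 5 members were called, 4 lower and Thra higher.

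Thrb, the beta receptor (ENSMUSG00000021779, chr14:17660261-18038090, plus strand, GRCm38), was listed in sham livers at 4.002, 4.05, 4.15, 4.34 and 4.35 log2 TPM. In the 8 SBR vehicle livers it ran from 3.30 through a median of 3.77 to 3.998, so that the groups did not overlap, as for 1.62% of genes in this direction. The log2 difference was -0.48 (SE 0.11, 95% interval -0.71 to -0.25, a 1.39-fold lower level), with an adjusted p of 0.0019 by limma. Against the median shift of all genes the difference was -0.72.

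Dio1 (ENSMUSG00000034785, chr4:107291465-107307169, minus strand) was listed at 6.21, 6.33, 6.33, 6.41 and 6.50 in sham livers and at 4.70 to 6.04, median 5.80, in SBR vehicle livers. Every SBR vehicle library lay below every sham library. The log2 difference was -0.67 (SE 0.16, interval -1.01 to -0.33, adjusted p = 0.0030 by limma). Replicate 2 of SBR vehicle was far below the rest at 4.70, and without it the difference was -0.53 (adjusted p = 6.7e-05 by limma).

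Thrsp (ENSMUSG00000035686, chr7:97412938-97417730, minus strand) had a larger SD than the other members in each liver group. It was listed at 5.31, 5.91, 6.71, 7.02 and 7.18 in sham and 3.77 to 6.14, median 4.95, in SBR vehicle. The groups overlapped, with 5 of 8 SBR vehicle libraries below all sham libraries and all 8 below the sham mean. The log2 difference was -1.36 (SE 0.45, interval -2.29 to -0.42, adjusted p = 0.020 by limma). This call was lost without sham replicate 1 (-1.21, adjusted p = 0.058 by limma) or sham replicate 5 (-1.17, adjusted p = 0.063). It was also lost with the replicate number as a block (-1.21, adjusted p = 0.087 by limma).

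Thra, the alpha receptor (ENSMUSG00000058756, chr11:98740638-98769006, plus strand), moved the other way. It was listed at 4.44, 4.65, 4.65, 4.77 and 4.89 in sham livers and at 4.87 to 5.51, median 5.21, in SBR vehicle livers, where 7 of 8 libraries were above all sham libraries. The log2 difference was 0.52 (SE 0.10, interval 0.31 to 0.74, adjusted p = 0.0004 by limma), or 0.28 against the median of all genes. The 3′ end of Thra overlaps Nr1d1, a clock repressor on the opposite strand, over 263 of 4614 exon bases, and whether counting used the strand is not given in the sources used here, so reads of the overlap cannot be told apart. Nr1d1 itself differed by -0.06 (adjusted p = 0.77 by limma).

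Klf9 (ENSMUSG00000033863, chr19:23141226-23168134, plus strand) was listed at 5.25, 5.48, 5.60, 5.63 and 5.84 in sham livers and at 4.80 to 5.97, median 5.56, in SBR vehicle livers. The groups overlapped on both sides, and the log2 difference was -0.07 (interval -0.45 to 0.30, adjusted p = 0.77 by limma). Centred on library medians it was -0.38 (adjusted p = 0.031 by limma), so its call rests on the scaling.

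**Figure D1:**
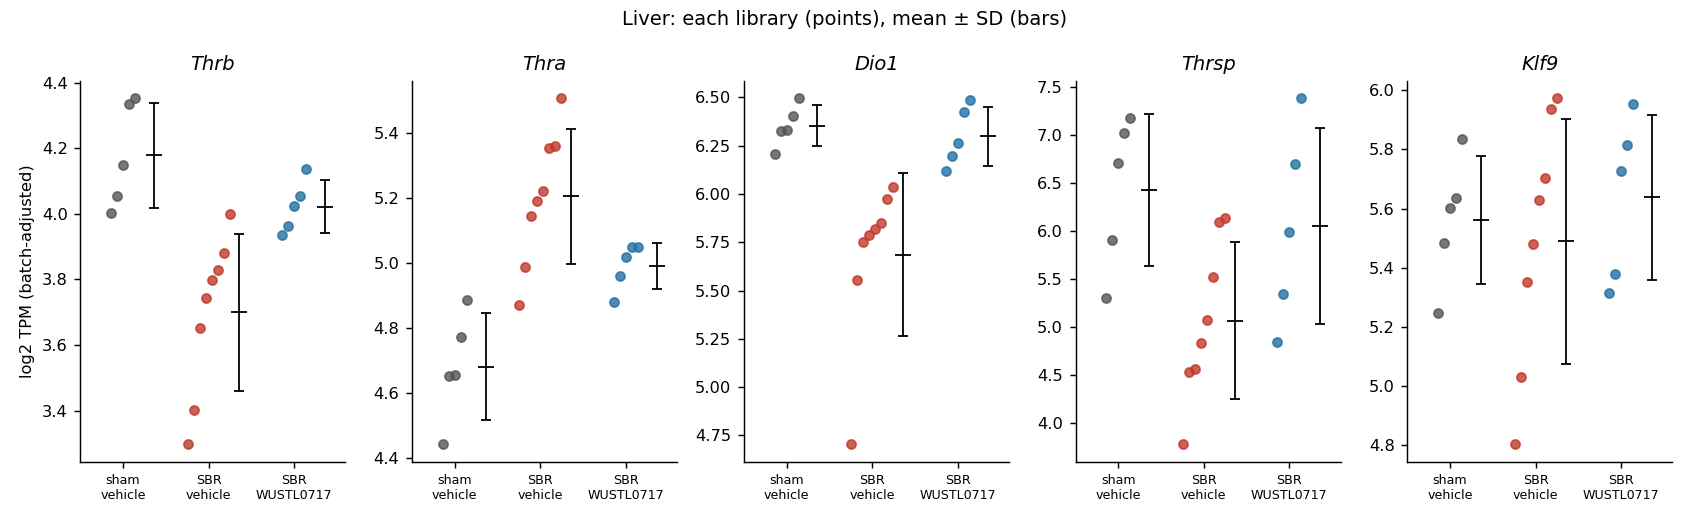
Each panel plots 1 gene in liver, with batch-adjusted log2 TPM on the vertical axis (axes differ in range and do not start at 0), a point for each library of sham vehicle (n = 5), SBR vehicle (n = 8) and SBR WUSTL0717 (n = 5), and bars for the mean ± SD. Thrb and Dio1 in SBR vehicle lay below every sham library, 7 of 8 SBR vehicle libraries lay above all sham libraries for Thra, and Klf9 overlapped across groups.

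The 2 receptors thus moved apart. Within each liver library Thrb minus Thra was -0.50 ± 0.07 log2 units in sham (SD, n = 5), -1.51 ± 0.17 in SBR vehicle (n = 8) and -0.97 ± 0.13 in SBR WUSTL0717 (n = 5). The ranges were -0.60 to -0.44, -1.71 to -1.23 and -1.09 to -0.74, and no group overlapped another. This measure was chosen after the values were seen and was given no test, and its zero has no meaning because levels of different genes are not on 1 scale. How many other pairs of genes keep the 3 groups apart was not counted.

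Cell type markers moved with these results. All 10 hepatocyte markers had a negative difference in SBR vehicle against sham livers and 3 were called lower by limma, Serpina1c (-1.64), Cyp2e1 (-0.92) and Cps1 (-0.42). When libraries were centred on their medians, all 10 were called lower, and 7 were called higher with WUSTL0717 than with vehicle (0 as deposited). Over all genes, 4.47% were called lower in SBR vehicle livers as deposited and 28.8% when centred. With WUSTL0717, 19.7% were called in either direction when centred. The mean of the 10 hepatocyte markers was 8.24 to 8.74 log2 TPM in sham, 7.28 to 8.33 in SBR vehicle and 8.30 to 8.62 in SBR WUSTL0717 libraries, none at 0. Cholangiocyte markers rose, 6 of 6 called higher (mean 3.33 to 4.12 in sham, 5.38 to 6.15 in SBR vehicle and 4.61 to 5.66 in SBR WUSTL0717), as did 7 of 8 stellate cell and myofibroblast markers (3.83 to 4.32, 5.02 to 5.82 and 4.70 to 5.46). The same counts of these 2 lists were called higher when centred. Of all genes, 37.4% were called higher as deposited and 20.4% when centred. In bulk tissue, fewer cells of a type and less RNA per cell cannot be told apart.

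Over the 18 livers Thrb and Dio1 tracked the hepatocyte marker mean, with Pearson's r of 0.92 and 0.91, and 0.86 and 0.82 with group means removed. Thrsp had 0.61, Klf9 0.45 and Thra -0.27, while Thra had 0.89 with the cholangiocyte mean and 0.91 with the stellate mean. With group means removed, Thra turned to 0.61 with the hepatocyte mean and was at 0.65 and 0.72 with the other 2 means, while Thrsp had 0.33 and Klf9 0.49 with the hepatocyte mean. These are descriptions over libraries that share their scaling. Liver SBR vehicle replicate 2, the lowest of all for Thrb and Dio1, also had the lowest hepatocyte mean, 7.28.

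**Figure D2:**
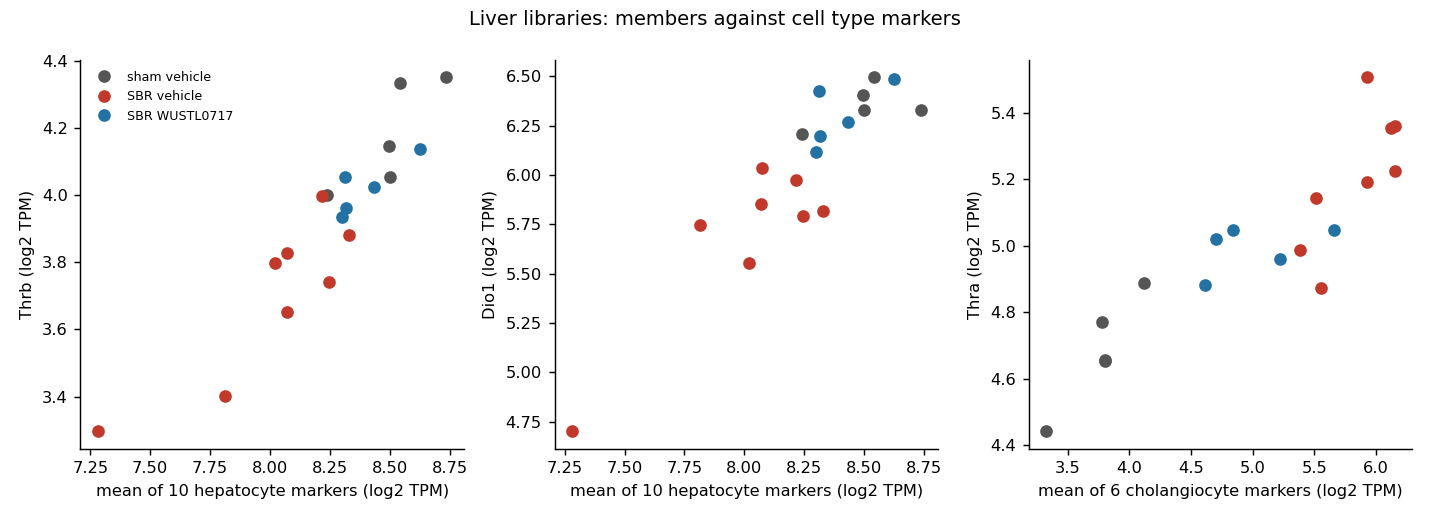
Each point is 1 of 18 liver libraries, coloured by group, with the mean log2 TPM of the cell type markers on the horizontal axis and the log2 TPM of the gene on the vertical axis. Thrb and Dio1 were plotted against 10 hepatocyte markers (r = 0.92 and 0.91) and Thra against 6 cholangiocyte markers (r = 0.89), and the lowest point in the first 2 panels is SBR vehicle replicate 2.

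With every library centred on its hepatocyte marker mean instead, a scaling added after the data were seen, Thrb differed between SBR vehicle and sham by 0.018 (interval -0.17 to 0.20, adjusted p = 0.84 by limma). Dio1 was at -0.17 (interval -0.38 to 0.03, adjusted p = 0.11) and Thrsp at -0.86 (interval -1.71 to -0.01, adjusted p = 0.052). Thra was then 1.02 higher (adjusted p = 1.1e-07 by limma) and Klf9 0.43 higher (adjusted p = 0.017), where 88.5% of all genes were called higher under that scaling. A change in the hepatocyte share and a change of these genes within hepatocytes cannot be told apart in these libraries.

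In resected mice given WUSTL0717, Dio1 was higher in the liver than with vehicle, and the other 4 genes did not pass the test. That 1 call of 5 stood beside 1.44% of all genes called higher and 2.66% called lower. That background of 652 genes was 93 without SBR WUSTL0717 replicate 3 and 1075 without SBR WUSTL0717 replicate 4, was 113 and 176 without its replicates 2 and 1, and was 408 without SBR vehicle replicate 1. Both comparisons use the same SBR vehicle libraries, so their values are given side by side and their opposite signs are not counted as support.

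Dio1 was listed at 6.12, 6.20, 6.27, 6.42 and 6.48 in SBR WUSTL0717 livers, all above the highest SBR vehicle library at 6.04, as for 1.23% of genes in this direction. The log2 difference was 0.61 (SE 0.16, interval 0.27 to 0.96, a 1.53-fold higher level, adjusted p = 0.040 by limma). An exact two-sided permutation test of the gene alone gave p = 0.0031. Against sham, Dio1 in SBR WUSTL0717 livers differed by -0.06 as deposited (interval -0.43 to 0.32) and by -0.36 with libraries centred on their medians (interval -0.65 to -0.06, adjusted p = 0.085 by limma).

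The call for Dio1 was close to the threshold and was lost without any 1 of 8 libraries, with adjusted p by limma of 0.055, 0.050, 0.057 and 0.072 without SBR vehicle replicates 1, 5, 6 and 7 and of 0.12, 0.096, 0.13 and 0.055 without SBR WUSTL0717 replicates 1, 2, 3 and 5 (differences 0.57 to 0.66). It was also lost in an unmoderated test (adjusted p = 0.18), in limma with only the 2 groups compared (adjusted p = 0.11) and with the replicate number as a block (adjusted p = 0.055). Without SBR vehicle replicate 2, the lowest library, the difference was 0.47 with an adjusted p of 0.0079. With libraries centred on hepatocyte markers it was 0.22 (adjusted p = 0.054 by limma), where 0.396% of all genes were called higher and 65.8% lower, with a median of -0.37.

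Thrb was listed at 3.93, 3.96, 4.02, 4.05 and 4.14 in SBR WUSTL0717 livers, between the sham and SBR vehicle means, and 3 of 5 libraries were above every SBR vehicle library. The log2 difference from SBR vehicle was 0.32 (interval 0.09 to 0.55) with an adjusted p of 0.12 by limma. The exact permutation test of this gene gave p = 0.014. Centred on library medians the difference was 0.33 (adjusted p = 0.0019 by limma, where 19.7% of all genes were called), and centred on hepatocyte markers it was -0.069 (adjusted p = 0.49).

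Thra, at 4.88, 4.96, 5.02, 5.05 and 5.05 in SBR WUSTL0717 livers, lay within the SBR vehicle range. The log2 difference was -0.21 (interval -0.43 to -0.0028, adjusted p = 0.28 by limma). It was called lower when centred on library medians (-0.21, adjusted p = 0.025) and on hepatocyte markers (-0.60, adjusted p = 0.0006, where 65.8% of all genes were called lower). Against sham it was 0.31 higher (interval 0.08 to 0.54, adjusted p = 0.045 by limma), the only member called in that comparison as deposited, where 27.9% of genes were called higher. With libraries centred on their medians Thra lost that call (0.0089, adjusted p = 0.94 by limma) and Thrb was called lower instead (-0.46, adjusted p = 0.00022). As deposited, the Thra difference was 0.04 relative to the median of all genes, and its call held in only 2 of 10 fits that left out 1 library, those without sham replicate 4 (0.36) and SBR WUSTL0717 replicate 3 (0.34). In the other 8 the difference was 0.25 to 0.33.

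Thrsp spread over 4.84, 5.34, 5.99, 6.70 and 7.38 in SBR WUSTL0717 livers. It was 0.99 higher than in SBR vehicle (interval 0.05 to 1.92) with an adjusted p of 0.25 by limma, and 2 of 5 libraries were above all SBR vehicle libraries. Klf9, at 5.32, 5.38, 5.73, 5.81 and 5.95, lay within the SBR vehicle range (difference 0.15, interval -0.23 to 0.52, adjusted p = 0.76 by limma).

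**Figure D3:**
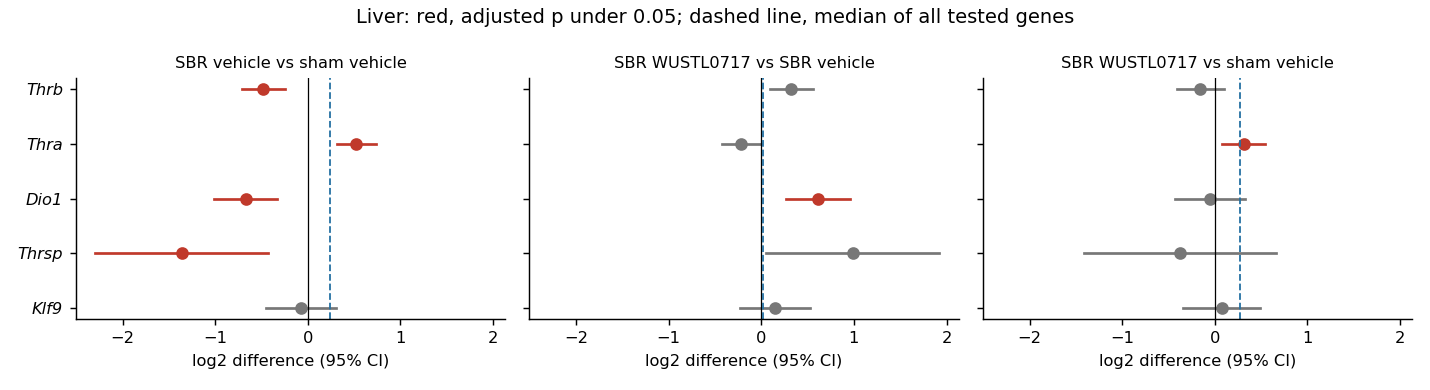
The log2 difference of each gene (point) with its 95% interval (line) is plotted for the 3 liver comparisons, red where the adjusted p by limma was under 0.05, with a dashed line at the median of all genes tested (0.25, 0.02 and 0.27). SBR vehicle against sham had 4 red genes, and each of the other comparisons had 1, Dio1 (0.61) and Thra (0.31).

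Genes of the pathway were counted in lists, and these counts include the members themselves. Of all genes, 37.4% were called higher and 4.47% lower in SBR vehicle livers, and 1.44% and 2.66% with WUSTL0717. With libraries centred on their medians, those shares were 20.4% and 28.8%, and 19.7% in either direction with WUSTL0717, and the counts of most lists changed. Among 5 receptors and RXR partners, Rxrg was called higher in SBR vehicle livers (0.57, adjusted p = 0.020 by limma) beside Thra, and Rxra, the main hepatic partner, differed by -0.19 (adjusted p = 0.10). When centred, 1 of the 5 was higher and 2 lower, the members Thra (0.22) and Thrb (-0.78) among them. Of 13 coregulators, 7 were called higher and none lower (median 0.28 against 0.25 over all genes), among them Tbl1xr1 (0.63) and Gps2 (0.44), members of the nuclear receptor corepressor complex. Centred on library medians, 2 of the 13 were higher and 5 lower. With WUSTL0717 no coregulator was called as deposited and 2 were called higher when centred.

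Hormone transporters went both ways, while the 5 deiodinase and clearance genes all had negative differences in SBR vehicle livers. Of 9 transporters, 4 were called higher and 3 lower in SBR vehicle livers (median -0.13), or 2 and 5 when centred. The lower ones were the hepatocyte uptake carriers Slco1a1 (-3.71, adjusted p = 1.9e-08 by limma), Slc10a1 (5.44 log2 TPM against 6.44 in sham) and Slco1b2 (-0.66), and the higher ones included the amino acid carrier genes Slc3a2 (1.12) and Slc7a8 (0.76). With WUSTL0717, Slco1b2 was called higher (0.50, adjusted p = 0.034 by limma), and 5 transporters were when centred. Among 5 deiodinase and clearance genes Dio1 was the only 1 called in either comparison as deposited, whereas 4 were called lower in SBR vehicle livers and 2 higher with WUSTL0717 when centred. As deposited, the other 4 in SBR vehicle livers ran from Sult1b1 (-0.36) through Ugt1a1 (-0.26) and Crym (-0.19) to Sult1a1 (-0.02). Dio2 and Dio3 were not analysed here.

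Of 18 hepatic genes known to be induced by thyroid hormone, 4 were called higher and 4 lower in SBR vehicle livers. Beside these stood 37.4% and 4.47% of all genes, and the list had a median of 0.07 against 0.25 over all genes. Higher were Fgf21 (2.64), a fasting hormone, Pdk4 (2.09), which spares glucose, the corepressor Hr (1.60) and the mitochondrial enzyme Gpd2 (0.39). Lower, beside Dio1 and Thrsp, were Mlxipl (-0.75), which encodes the glucose sensor ChREBP, and Pck1 (-0.76), of gluconeogenesis. Centred on library medians, 3 were higher and 7 lower, beside 20.4% and 28.8% of all genes.

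With WUSTL0717, 2 of the 18 were called higher than in SBR vehicle, Dio1 and Mlxipl (0.38, adjusted p = 0.017 by limma), and none lower. Beside these stood 1.44% and 2.66% of all genes, and the median was 0.23 against 0.02 over all genes. When centred, 6 were higher and 1 lower, beside 19.7% of all genes in either direction. Me1, the malic enzyme and a classical thyroid hormone target, was 0.63 higher (adjusted p = 0.051). Against sham, 7 were higher and 1, Mlxipl (-0.38), lower, beside 27.9% and 0.906% of all genes. When centred these were 4 and 1, beside 10.7% and 8.93%.

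**Figure D4:**
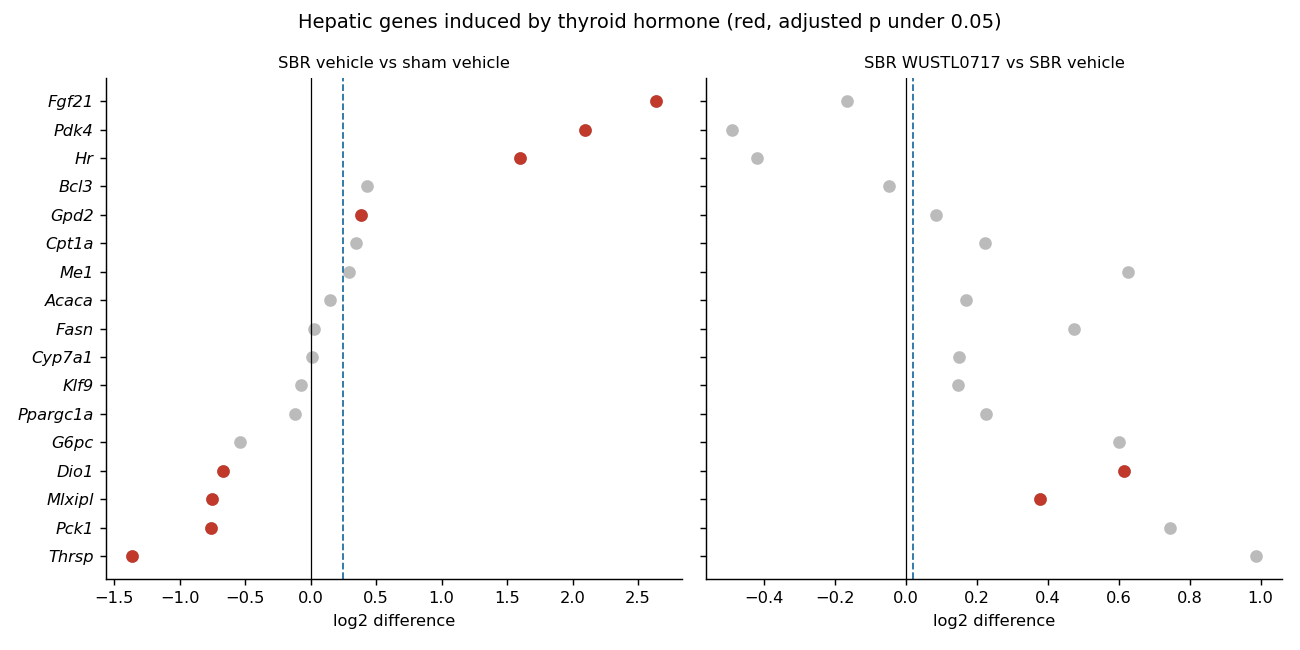
The log2 difference of 17 of the 18 hepatic genes known to be induced by thyroid hormone is plotted for SBR vehicle against sham and for SBR WUSTL0717 against SBR vehicle, with genes ordered by the first, red where the adjusted p by limma was under 0.05 and a dashed line at the median of all genes. In the first panel 4 red genes lie on each side of 0, from Thrsp (-1.36) to Fgf21 (2.64), and in the second the red genes are Dio1 and Mlxipl, and the panels have different horizontal ranges.

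Genes that share regulators with Thrsp and Klf9 gave no single pattern. Of 12 lipogenic genes, 2 were higher, Elovl5 (0.91) and Scd1 (0.69), and 2 lower, Thrsp and Mlxipl, in SBR vehicle livers, and Srebf1, the sterol response factor, was at -0.60 (adjusted p = 0.062 by limma). Of 10 glucocorticoid-induced genes, Mt1 (2.52), Mt2 (1.51) and Sgk1 (1.18) were higher and Tsc22d3 (-0.70) lower, and Fkbp5 was at 0.47 (adjusted p = 0.14). Of 15 clock genes, only Tef (-0.48) and Hlf (-0.55) were called as deposited, both lower, and Dbp was at -0.48 (adjusted p = 0.17) and Per1 at 0.00 (adjusted p = 0.99). Of 9 LXR target genes, Abcg1 (0.86) and Scd1 were higher and Abcg5 (-0.64) and Abcg8 (-0.63) lower. After median centring, 1 lipogenic gene was higher and 4 lower, 3 glucocorticoid-induced genes were higher and 3 lower, 8 clock genes were lower and none higher, and 1 LXR target was higher and 5 lower. With WUSTL0717 the only call in these 4 lists as deposited was Mlxipl, and the LXR targets had a median difference of 0.22. When centred, 2 lipogenic genes and 2 LXR targets were higher, 1 glucocorticoid-induced gene was higher and 1 lower, and no clock gene was called. The 3 plasma carriers of thyroid hormone were not called in SBR vehicle livers (Ttr -0.28, Alb -0.24 and Serpina7 0.50), and Ttr and Alb were called lower when centred (-0.53 and -0.48).

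Genes whose values over the 18 livers were most like each member, of 12338 compared, differed from member to member. For Thrb they were Rdh7 (r = 0.966), Kmo (0.961) and Polr3g (0.960), and for Dio1 they were Apom (0.938), Nit2 (0.938) and Serpinf1 (0.935). Thrsp was most like Urad (0.944), Cyp2d37-ps (0.942) and Slc38a3 (0.938), Thra most like Fhod1 (0.953), Ntn1 (0.953) and Arhgap45 (0.952), and Klf9 most like Map3k5 (0.911), Cpeb2 (0.862) and Slc38a2 (0.855). Among the members themselves, Thrb followed Dio1 (r = 0.86, and 0.71 with group means removed) and Thrsp (0.64, and 0.35), and had r = -0.34 with Thra, or 0.70 with group means removed. Within the 8 SBR vehicle livers alone, none of 10 member pairs passed Benjamini-Hochberg adjustment (smallest adjusted p = 0.11, exact permutation). The highest Pearson's r there was 0.74, for Thrb and Klf9 (Spearman's rho 0.55), and it was -0.07 without the 2 libraries farthest from the median of Thrb.

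In the intestine 1 call was made for the members in 6 comparisons of treatment, Thrsp in the ileum. The duodenum gave no member call, where limma called 0% of 15093 genes for SBR vehicle against sham (2426 genes had an unadjusted p under 0.05), 0.258% for SBR WUSTL0717 against SBR vehicle and 0.802% for SBR WUSTL0717 against sham. The ileum had 0.349%, 0.0697% and 2.17% of 15772 genes. These counts moved when single libraries were left out. The duodenal count for SBR vehicle against sham rose from 0 to 589 genes without SBR vehicle replicate 1, the library most like a liver library, with 0 members called, and to 2497 genes and 2 members (Thrb -1.55, Dio1 -2.60) with library weights. Ileal counts of 55, 11 and 343 genes fell to 3 without sham replicate 2, to 2 without SBR vehicle replicate 1 or 2 or SBR WUSTL0717 replicate 4, and to 65 without sham replicate 1.

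Thrsp in the ileum was higher in SBR WUSTL0717 than in sham, with SBR vehicle between them. It was listed at 2.96, 3.99 and 4.74 in sham, at 4.93, 5.08, 5.66 and 6.48 in SBR vehicle and at 7.11, 7.32, 7.45 and 10.5 in SBR WUSTL0717, and no group overlapped another (6.73%, 2.56% and 9.46% of genes did not overlap in this direction for SBR vehicle against sham, SBR WUSTL0717 against SBR vehicle and SBR WUSTL0717 against sham). SBR WUSTL0717 exceeded sham by 4.21 (SE 0.76, interval 2.55 to 5.87, adjusted p = 0.018 by limma). The steps from sham to SBR vehicle (1.64, interval -0.02 to 3.30, adjusted p = 0.60) and from SBR vehicle to SBR WUSTL0717 (2.56, interval 1.03 to 4.10, adjusted p = 0.45) did not pass limma's test over all genes. Exact permutation tests of the gene alone gave p = 0.029 for each step, the smallest that these group sizes can give.

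The call against sham was lost without sham replicate 1 (4.25, adjusted p = 0.082 by limma) or sham replicate 2 (3.74, adjusted p = 0.092). It was also lost in an unmoderated test (adjusted p = 0.24), in limma with only the 2 groups compared (adjusted p = 0.056) and with the replicate number as a block (adjusted p = 0.071). Without SBR WUSTL0717 replicate 2, the library at 10.5, the difference was 3.40 (adjusted p = 0.013). In the duodenum Thrsp stayed between 2.34 and 3.96 in all 11 libraries. The WUSTL0717 difference of Thrsp was 2.33 larger in ileum than in duodenum, and limma's interaction test gave an adjusted p of 1 over all genes (unadjusted p = 0.012). The mean of 8 enterocyte markers was 6.79 to 6.99 in sham, 6.58 to 7.09 in SBR vehicle and 6.96 to 7.33 in SBR WUSTL0717 ileum, none at 0, and their part in the result was not tested.

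The LXR-driven lipogenic factor Srebf1 was called higher with WUSTL0717 in the ileum (3.39, adjusted p = 0.043 by limma). Of the 18 hormone-induced genes none was called there against SBR vehicle. Against sham, 5 were called higher and none lower, beside 2.17% of all genes in either direction, with a median of 1.25 against 0.07 over all genes (6 and 1 when centred), and Thrsp, Me1, Fasn and Pdk4 were among the higher ones. In the duodenum only Me1 (2.87, adjusted p = 0.013 by limma) was called with WUSTL0717.

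Dio1 in the duodenum was listed at 3.37, 5.13 and 5.96 in sham, 2.19, 2.91, 3.06 and 3.66 in SBR vehicle and 3.36, 3.94, 4.32 and 4.91 in SBR WUSTL0717. SBR vehicle libraries were all below the sham mean and overlapped sham replicate 1. The difference was -1.86 (interval -3.18 to -0.55) with an adjusted p of 0.27 by limma, and with WUSTL0717 it was 1.18 (interval -0.04 to 2.40, adjusted p = 0.97). Pancreatic acinar transcripts in the duodenal libraries had a mean of 2.14 to 7.93 log2 TPM over the markers. Their group means were 6.08 in sham, 4.33 in SBR vehicle and 6.49 in SBR WUSTL0717, lowest in SBR vehicle as for Dio1 (4.82, 2.96 and 4.13) and Thrb (3.64, 2.54 and 3.36). The mean of 8 enterocyte markers, by contrast, was lowest in sham duodenum, at 5.35 to 6.22 against 6.50 to 7.10 in SBR vehicle and 6.44 to 6.82 in SBR WUSTL0717. The part of either marker list in these values was not tested.

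In the ileum Dio1 ran from 5.13 to 7.71, and SBR vehicle differed from sham by -1.20 (interval -2.44 to 0.03, adjusted p = 0.61 by limma). Thrb in the duodenum was 3.06, 3.80 and 4.06 in sham against 1.66, 1.95, 3.05 and 3.49 in SBR vehicle (difference -1.10, interval -2.26 to 0.05, adjusted p = 0.32 by limma), and in the ileum the difference was 0.21 (interval -1.16 to 1.58). Thra and Klf9 had intervals that included 0 in all 6 intestinal comparisons. Thra in the ileum was 4.64, 4.93 and 5.10 in sham and 3.25, 4.09, 4.67 and 4.73 in SBR vehicle (difference -0.70, interval -1.67 to 0.26).

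**Figure D5:**
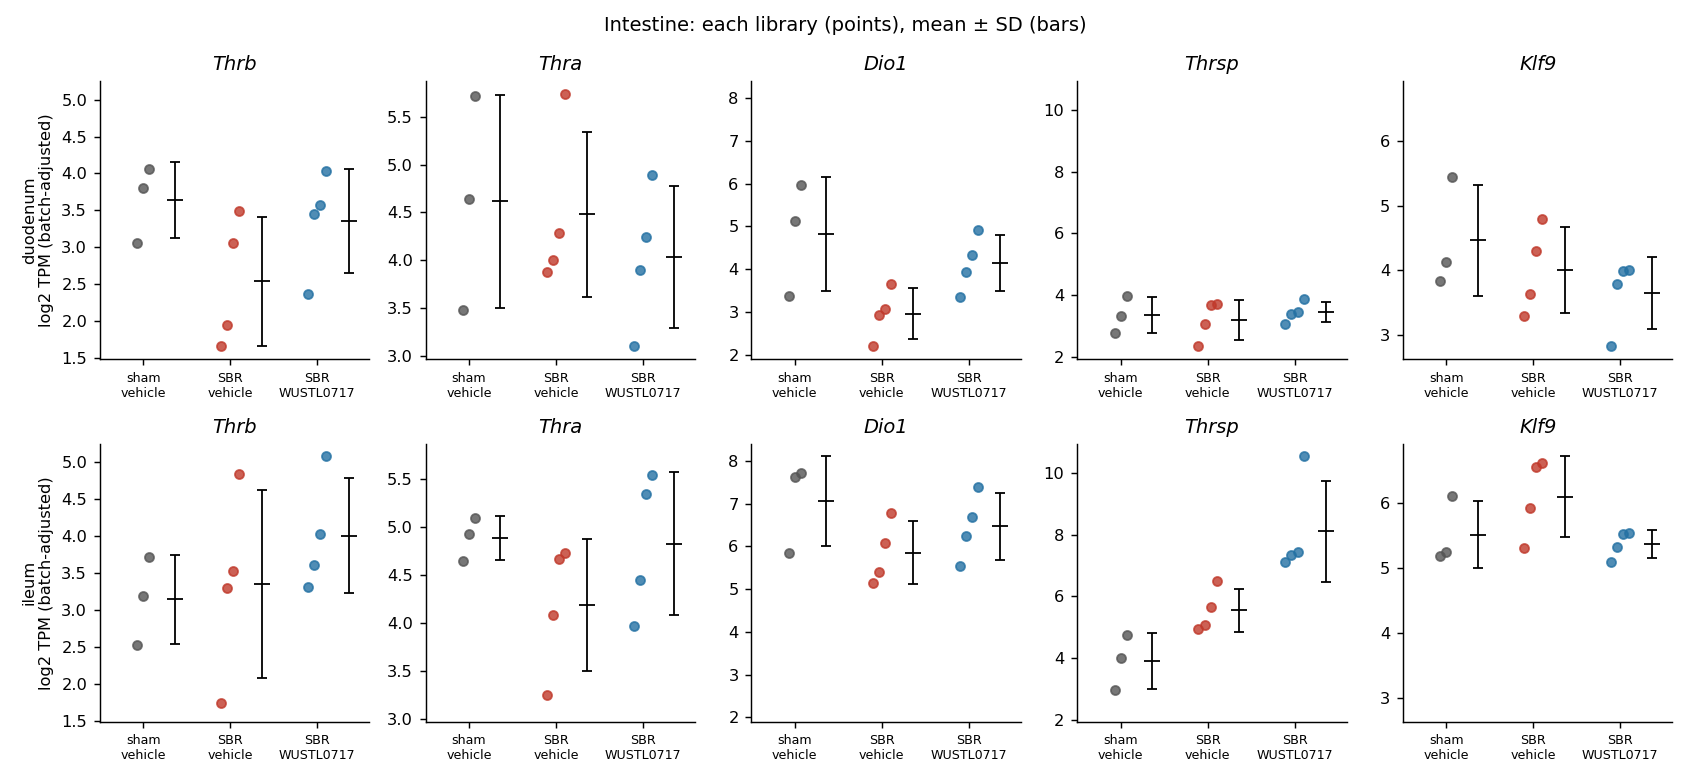
Each panel plots 1 gene in the duodenum (upper row, n = 3, 4 and 4) or ileum (lower row, n = 3, 4 and 4), with batch-adjusted log2 TPM on a vertical axis that both regions share and that does not start at 0, a point for each library and bars for the mean ± SD. Thrsp in the ileum rises from 2.96 to 4.74 in sham to 7.11 to 10.5 in SBR WUSTL0717 without overlap, while in the duodenum its groups overlap.

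Between regions, which shared a batch and can be compared in level, Dio1, Thrsp and Klf9 were lower in duodenum than in ileum over the 3 groups (-2.49, -2.51 and -1.62, each with an adjusted p under 1.4e-05 by limma). In this comparison 62% of all 15923 genes were called lower and the median was -0.83. Centred on library medians the same 3 were lower by limma (-1.73, -1.76 and -0.87), beside 23.7% of genes. In sham mice alone only Dio1 was called (-2.23, adjusted p = 0.025 by limma, beside 10.8% of genes called lower), a call lost with median centring (-1.78, adjusted p = 0.056), and the exact permutation test of 3 against 3 libraries gave p = 0.20 for it. Thrsp in sham mice alone was -0.54 (interval -1.97 to 0.90). Over the 3 groups Thrb (-0.32) and Thra (-0.26) were not called. These fits took libraries of the 2 regions as independent, and the labels do not say whether the regions share mice.

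Resection effects on 2 members differed between liver and ileum, among 30 differences tested by exact permutation of the treatment within tissues. The difference of Thra from sham was 0.52 in SBR liver and -0.70 in SBR ileum, a difference of effects of 1.23 (exact permutation p = 0.0015, adjusted p = 0.022). For Thrsp it was -1.36 in liver and 1.64 in ileum, a difference of effects of -3.00 (exact permutation p = 0.00067, adjusted p = 0.020). The batch adjustment may have stretched sizes in the 2 tissues by different factors, which would leave their signs. Labels were permuted in each tissue separately, so mice that may be shared between tissues were not allowed for. For Thrb and Dio1, whose effects in liver, duodenum and ileum were -0.48, -1.10 and 0.21 and -0.67, -1.86 and -1.20, no difference between tissues passed the test.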

How the data were processed

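RNA of liver, duodenum and ileum was depleted of ribosomal RNA and sequenced, and per the labels and the study's methods reads were aligned with STAR and counted with featureCounts (Subread) on GRCm38. The authors turned counts into TPM, took log2, adjusted for batch with ComBat (intestine and liver as separate batches) and deposited 1 table of log2 TPM values of 15958 genes in 40 libraries, of which 2752 values are below 0. The study's methods do not name an offset added before the log2, and the scale was taken here as log2(TPM + 1) before adjustment. The TPM sums and the pseudocount alternatives rest on that, and if it holds, differences understate changes of low genes. Depth is unknown, since TPM keeps no read totals.

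Groups came from the sample labels. Per tissue, all genes whose mean reached 1 log2 TPM were fitted with limma (version 3.58.1, R 4.3.3) over the 3 groups together, with a trended prior variance. P-values were adjusted by Benjamini-Hochberg over every gene fitted, and a call means an adjusted p below 0.05. Single genes were also compared by exact two-sided permutation of libraries, and effects in different tissues by permuting the treatment within tissues (Python 3.11.15, numpy 2.4.6, pandas 2.3.3, scipy 1.17.1, figures with matplotlib 3.10.9). The limma fits were tested on simulated data. Gene by gene the study used unpaired t-tests and rank-sum tests of 2 groups, and for its figure with liver Thrb an analysis of variance. Of these only an unmoderated two-sample test was run here as an alternative, so the study's own test of Thrb was not repeated.

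Genes named are the 5 members, a few fixed neighbours (Nr1d1, Srebf1, Mlxipl, Fkbp5, Per1, Dbp) and, of each list, all called genes where 4 or fewer were called and otherwise the 3 with the smallest p, uncalled genes being given as values. The 3 genes most like a member were chosen by Pearson's r, unnamed transcripts left out. The members and lists were chosen with earlier results of these data known. Alternatives changed the filter, the pseudocount, the scaling, the variance model, library weights, the groups in the fit, the replicate block and the libraries, and centring on hepatocyte markers was added after the data were seen. Promoters and motif shares came from RefSeq (GRCm38.p6), and gene coordinates from GENCODE M21 on GRCm38. A promoter of Thra was not used here. Some genes that this rule names are not reported here, and 1 of them is left out of a plot.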

Additional observations from a re-analysis of the deposited data

Results flagged for a closer look

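In liver SBR vehicle replicate 2, Dio1 was listed at 4.70, far below the nearest of the other 7 libraries at 5.56. This library had the lowest mean of the hepatocyte markers among the 18 livers (7.28), and its part in the value was not tested. In ileum SBR WUSTL0717 replicate 2, Thrsp was listed at 10.5, far above the nearest of the other 3 libraries at 7.45. Of 35 groups checked for such a library, 2 had one, and chance gives about 1 in 20 groups.

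The effect of resection on Thra differed between liver and ileum by 1.23 (exact permutation p = 0.0015, adjusted p = 0.022 over 30 differences), and that on Thrsp by -3.00 (exact permutation p = 0.00067, adjusted p = 0.020). All 8 SBR vehicle livers were above the sham mean for Thra and all 4 SBR vehicle ilea below it, and for Thrsp all 8 livers were below and all 4 ilea above. Without 1 library each, the differences were 0.92 to 1.41 for Thra and -3.43 to -2.53 for Thrsp, with exact permutation p, not adjusted over the 30 differences, of up to 0.028 and 0.0027. For Thra the unadjusted exact permutation p was 0.013, 0.028 and 0.022 without ileum sham replicates 1, 2 and 3, where an adjusted p was not computed, and it was at most 0.0032 without any other library.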

How the results depend on the processing

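In SBR vehicle against sham livers, Thra kept its direction and its call in 12 of 12 alternatives, and Thrb and Dio1 in 11 of 12. The exception for both was centring on hepatocyte markers, which gave Thrb 0.018, Dio1 -0.17, Thrsp -0.86 and Klf9 0.43, with 2 members called. Under the replicate block Thrsp was -1.21 (adjusted p = 0.087 by limma). Klf9 was -0.38 with median centring and 0.0082 with library weights. Without 1 library each, Thrsp was -1.64 to -1.17 and Klf9 -0.15 to 0.026.

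In SBR WUSTL0717 against SBR vehicle livers, Thrb was called with median centring (0.33), quantile normalization (0.31) and library weights (0.23) and was -0.069 on hepatocyte markers. Thra was called under the same 4 scalings and weights, at -0.21, -0.27, -0.30 and -0.60. Dio1 lost its call in an unmoderated test (0.61, adjusted p = 0.18), with only the 2 groups compared (0.61, adjusted p = 0.11), under the replicate block (0.68, adjusted p = 0.055 by limma) and on hepatocyte markers (0.22), where Klf9 was -0.24. Members called were 3 with median centring, quantile normalization or weights and 0 unmoderated, with 2 groups or with the block. Without 1 library each, Dio1 was 0.47 to 0.66, with 0 to 1 members called.

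In SBR WUSTL0717 against sham livers, Thrb gained a call with median centring (-0.46) and quantile normalization (-0.45), and Thra lost its call under both (0.0089 and 0.021). Klf9 was then -0.22 and -0.21, Dio1 was 0.051 on hepatocyte markers, and Thrsp was -1.13 with library weights, where 2 members were called. Without 1 library each, Thra was 0.25 to 0.36, Klf9 -0.0019 to 0.16 and members called 0 to 1.

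In the duodenum, SBR vehicle against sham gave Thra 0.27 and 0.14 and Thrsp 0.25 and 0.16 with median centring and quantile normalization, and library weights called 2 members. SBR WUSTL0717 against sham gave Thrb 0.082 and 0.046, and Thrsp -0.071 under the replicate block. Without 1 library each, Thra was -0.70 to 0.41, Thrsp -0.45 to 0.14 and Klf9 -0.77 to 0.028 for SBR vehicle against sham. Thrsp was -0.050 to 0.41 for SBR WUSTL0717 against SBR vehicle, and against sham Thrb was -0.57 to 0.046 and Thrsp -0.21 to 0.38.

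In the ileum, Thrb for SBR vehicle against sham was -0.045 under the replicate block and -0.29 to 0.74 without 1 library each. For SBR WUSTL0717 against sham, Thra was 0.058 with library weights and -0.30 to 0.22 without 1 library each, Klf9 -0.31 to 0.15 and Thrsp 3.40 to 4.63, with 0 to 1 members called. Thrsp lost its call unmoderated (4.21, adjusted p = 0.24), with only the 2 groups compared (4.21, adjusted p = 0.056) and under the replicate block (4.39, adjusted p = 0.071 by limma), with 0 members called in each. Between regions, Thrb was 0.43 and 0.42 and Thra 0.50 and 0.43 with median centring and quantile normalization. In SBR vehicle livers, median centring gave r of -0.25 for Thrb and Thra, -0.055 for Thrb and Klf9, -0.80 for Thra and Dio1 and -0.086 for Dio1 and Klf9.

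Counts over all genes in the treatment comparisons moved by more than 1.5 times in these cases, leaving aside fits without 1 library. For liver SBR vehicle against sham, 6663 became 10462 with library weights, 14262 on hepatocyte markers and 4180 with the filter at 3. For SBR WUSTL0717 against SBR vehicle livers, 652 became 3133 with median centring, 2635 with quantile normalization, 2819 with weights, 10528 on hepatocyte markers, 334 with the filter at 3, 148 with 2 groups and 0 unmoderated (2235 at an unadjusted p under 0.05). Against sham, 4580 became 8387 with weights and 9475 on hepatocyte markers. In the ileum, 343 for SBR WUSTL0717 against sham became 764 with weights, 137 with 2 groups, 88 with the block and 31 unmoderated. Ileal counts of 55 for SBR vehicle against sham became 279 with weights, 92 with quantile normalization, 12 with the block, 10 with 2 groups and 5 unmoderated, and 11 for SBR WUSTL0717 against SBR vehicle became 18 with weights and 1 with the block, with 2 groups or unmoderated. In the duodenum, 0 for SBR vehicle against sham became 2497 with weights, 96 with median centring, 34 with quantile normalization, 5 with the filter at 3 or no variance trend and 1 unmoderated. For SBR WUSTL0717 against SBR vehicle, 39 became 85 with weights, 17 with quantile normalization, 11 with 2 groups, 8 with the block and 2 unmoderated. Against sham, 121 became 1124 with weights, 393 with median centring, 248 with quantile normalization, 38 with 2 groups, 2 unmoderated and 1 with the block. Without 1 library each, the counts were 5399 to 9010, 93 to 1075 and 2456 to 4875 in the 3 liver comparisons, 0 to 589, 7 to 28 and 22 to 84 in the duodenum and 3 to 38, 2 to 12 and 65 to 241 in the ileum. The cause of these changes was not tested. Whether replicate numbers pair the libraries could not be settled, because each comparison had only 3 to 5 same-numbered pairs. Same-numbered liver libraries of 2 groups had r of their deviations from -0.20 to 0.17, duodenal ones from -0.30 to 0.33 and ileal ones from -0.32 to 0.24. Mice shared between tissues were not checked for. Under the block 5587, 485 and 6075 genes were called in the 3 liver comparisons, against 6663, 652 and 4580 without it. The intestinal groups held 3 or 4 libraries, and the depth of each value is unknown.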
